A study of Mus musculus with 22 samples.

Results

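Livers of 5-week-old mice that lack Trim24 were compared with those of wild-type (WT) mice of the same age, with attention to genes and pathways outside the interferon response. The comparison rests on 8 of the 22 one-colour arrays of the study, each hybridised with RNA from 1 liver: 4 from WT and 4 from Trim24-/- animals, chosen by the age and genotype in their labels. The study profiled transcription at 5 and 14 weeks of age, and its title concerns how Trim24 restrains interferon signalling through Rara. All genotypes came from intercrosses of Trim24+/- Rara+/- mice on a hybrid background of 60% C57BL/6 and 40% 129/Sv, so that animals could also differ at loci other than Trim24. Trim24 had been disrupted in the germ line and was thus missing from every cell of the animal, not from hepatocytes alone. Set beside these animals were 4 mice of 5 weeks with the genotype Trim24-/- Rara+/-, which carry 1 intact Rara allele, and 5 WT and 5 Trim24-/- mice of 14 weeks. The mice had received no treatment that the labels name, and their sex is not given there.

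Trim24 is a co-regulator with a tripartite motif that binds nuclear receptors, among them the retinoic acid receptor encoded by Rara, and modified histones, and it is known in mouse liver as a brake on tumour formation. Liver is the main site of fatty acid oxidation, bile acid and steroid handling and xenobiotic metabolism. The receptor PPARa drives fatty acid oxidation genes there, and pulses of growth hormone set the levels of many cytochrome P450, sulfotransferase and plasma protein genes that differ between males and females.

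Signals are linear intensities, in arbitrary units, as the authors deposited them, with the same trimmed mean on every array. Differences were tested with limma on log2(signal + 16), and a gene was called when its Benjamini-Hochberg adjusted p was under 0.05 over all 18194 genes. Median signal per array ran from 12.8 to 16.1 over the 8 arrays, so that 49.9% to 54.1% of probe sets lay below 16 and differences of dim genes are understated. Trim24 itself read 459, 290.1, 191 and 327 in WT animals 2, 44, 45 and 90 and 347, 488, 305 and 314 in Trim24-/- animals 1, 6, 8 and 37, a difference of 0.23 ± 0.22 (SE, adjusted p = 0.766). Rara was dim, at 12.3 ± 11.7 (SD, n = 4) in WT animals and 13.7 ± 8.45 in mutants. The sources do not say whether the Trim24 probes fall inside the disrupted stretch, so Trim24 does not check the labels. Neither group is labelled as lacking a Rara allele, so Rara does not check them either. Of 12 hepatocyte markers 11 were measured and none was called (summed signal 88733 to 96131 in WT and 74949 to 92977 in Trim24-/- animals). All 11 had negative differences (median -0.10). Xist read 978 to 2169 on all 8 arrays, and the Y-linked Eif2s3y stayed at 0.439 to 6.59. Both groups thus share 1 pattern of sex-linked signal, that of female livers. WT animal 90 and Trim24-/- animal 6 stood apart from the rest: over 8179 genes above a log2 level of 6 they correlated at r = 0.979 with each other, and at 0.940 to 0.958 with the other 6 arrays, which ranged from 0.954 to 0.987 among themselves. Counts are therefore also given without that pair. In whole liver, fewer cells of a type and less RNA per cell cannot be told apart.

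Across the 18194 genes, 109 were called (0.599%), 86 for a rise (0.473%) and 23 for a fall (0.126%) in the mutants. The 3 interferon lists (stimulated genes, inducible GTPases, MHC class I presentation) have 98 measured genes, of which 32 were called, each of them higher. These lists do not hold every gene known to respond to interferon. Some genes outside them may therefore also respond to it, which was not tested. The remaining 77 called genes are described here: 54 rose, among them 23 by 1 or more on the log2(signal + 16) scale, and all 23 falls, 6 of them as large, lie in this set. With each array centred on its own median the split was 65 higher and 10 lower. WT and Trim24-/- arrays did not overlap for any of the 77. Of the 39 genes with further probe sets, 14 have at least 1 whose difference has the opposite sign. Without overlap were 1004 genes of the whole array (5.52%), 545 higher (3.0%) and 459 lower (2.52%), and 1972 had an unadjusted p under 0.05 (10.8%). The median difference over all genes was -0.01 and 47.9% of the differences were positive. With WT animal 90 and Trim24-/- animal 6 left out, 84 genes outside the interferon lists were called, 58 higher and 26 lower, and 48 of the 77 were among them. The calls lean on single arrays: leaving out WT animal 45 kept 9 of the 77, leaving out WT animal 44 kept 22, and leaving out mutants 8 or 1 kept 11 or 18. All 77 kept an unadjusted p under 0.05 in each of these fits. That outcome was likely beforehand, since the genes were selected for small p-values in the same arrays. Called under all 27 alternatives were Mbd1, Cfap53, C6, Cyp2u1, Cyp7b1, Zfp445 and Cyp4v3.

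Promoter sequences, available from RefSeq (GRCm38.p6) for 41 of the 54 genes that rose and 15 of the 23 that fell, were searched over the 250 bases before the start site on both strands. The first motif was GAAANNGAA, part of the interferon-stimulated response element. The second was AGGNCA repeated in the same direction with 1 base between, the kind of repeat that PPARa binds. No promoter of the 77 genes held both, and matches of GAAANNGAA can overlap each other, as they did once, in Trim26. GAAANNGAA occurred in 14.6% of promoters of genes that rose (6 of 41), 13.3% of those that fell (2 of 15), 7.52% of all 14368 measured genes with a promoter and 39.1% of called interferon-list genes (9 of 23). The AGGNCA repeat was found upstream of Cyp2d9, 1 of 41 genes that rose (2.44%), in 0 of 15 that fell and in 0.397% of all genes. The promoters of Cyp4v3 and Calhm6, which rose, and Oat, which fell, are shown because they hold GAAANNGAA, and that of Cyp2d9, which rose, because it holds the AGGNCA repeat. The windows lie at chr8:45333164-45333413, minus strand for Cyp4v3, chr10:34127973-34128222, minus strand for Calhm6, chr7:132576399-132576648, minus strand for Oat and chr15:82452127-82452376, plus strand for Cyp2d9. Sequences run 5′ to 3′ on the gene's strand and end at the base before the start site, and capitals mark the match on either strand.
Cyp4v3: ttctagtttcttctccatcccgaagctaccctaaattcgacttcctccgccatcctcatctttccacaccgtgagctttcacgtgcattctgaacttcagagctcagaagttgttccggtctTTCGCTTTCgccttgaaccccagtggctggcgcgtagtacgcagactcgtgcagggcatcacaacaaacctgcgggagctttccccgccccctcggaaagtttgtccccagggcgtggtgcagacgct
Calhm6: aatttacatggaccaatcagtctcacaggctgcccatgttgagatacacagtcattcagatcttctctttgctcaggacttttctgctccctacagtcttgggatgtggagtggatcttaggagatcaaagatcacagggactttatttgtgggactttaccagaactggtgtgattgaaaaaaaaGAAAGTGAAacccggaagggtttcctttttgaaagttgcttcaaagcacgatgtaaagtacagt
Oat: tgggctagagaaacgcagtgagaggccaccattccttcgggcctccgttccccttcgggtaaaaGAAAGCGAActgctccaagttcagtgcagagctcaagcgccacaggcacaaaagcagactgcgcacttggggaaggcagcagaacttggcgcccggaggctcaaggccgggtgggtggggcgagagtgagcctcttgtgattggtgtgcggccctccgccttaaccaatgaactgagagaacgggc
Cyp2d9: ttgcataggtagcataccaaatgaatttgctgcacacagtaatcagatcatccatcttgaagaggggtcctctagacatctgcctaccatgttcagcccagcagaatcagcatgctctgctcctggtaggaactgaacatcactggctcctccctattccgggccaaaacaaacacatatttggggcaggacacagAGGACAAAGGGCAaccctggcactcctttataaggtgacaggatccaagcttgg
A match of letters is a description and no evidence of binding, and a promoter without a match says only that these letters are not in its window.

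In the following, the values of a gene are given for WT animals 2, 44, 45 and 90 and then for Trim24-/- animals 1, 6, 8 and 37, always in this order, and a difference is that of log2(signal + 16), Trim24-/- minus WT, ± SE. Errors of mean signals are SD over the animals of a group. Members of a list that were not called are named as examples, chosen after their values were seen, except for the 2 brightest of each list that held no call. The lists themselves were written with earlier results of these arrays known.

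Genes that bind or silence DNA were among the largest rises. Mbd1, which binds methylated CpG sites, read 264, 284, 424 and 318 in WT and 2599, 3134, 2796 and 3518 in Trim24-/- livers. Every mutant value was far above the highest WT value. The rise was 9.02-fold on the log2(signal + 16) scale (3.17 ± 0.22, SE, adjusted p = 6.73e-05), and the 4 other Mbd1 probe sets were called higher too. Cfap53, a gene of motile cilia and the next measured gene to Mbd1, went from 5.94, 3.09, 4.29 and 5.77 to 353, 981, 195 and 424. It lay below 16 in every WT liver, so no fold is given, and no mutant liver came near that level (4.37 ± 0.43, adjusted p = 6.02e-04). Zfp445, a zinc finger protein that keeps imprinted loci silent, read 556, 479.7, 484 and 551 in WT against 1159, 1526, 1361 and 987, a rise of 2.36-fold (1.24 ± 0.13, adjusted p = 0.00104). Its groups were apart, and its 2 other probe sets had the same sign without being called. Resf1, a factor in the silencing of retroelements, read 149, 111, 110.2 and 151 and 318, 496, 657 and 186. Its mutant values spread widely, the lowest (animal 37) being close to WT, and its call (1.43 ± 0.28, adjusted p = 0.0452) was lost under 18 of the 27 alternatives. The zinc finger genes Zfp991 and Zfp979 were both below 17 in all WT livers and reached 61.9, 78.7, 101 and 31.4 and 24.6, 17.3, 34.4 and 7.86 in mutants, with animal 37 again the lowest and 1 of 2 other Zfp991 probe sets of opposite sign (1.69 ± 0.25 and 1.01 ± 0.19, adjusted p = 0.0145 and 0.0351). Among 24 measured genes of the TRIM24 family and KRAB-dependent silencing (KRAB is the repressor domain of many zinc finger proteins), Mbd1 and Zfp445 rose and none fell, and 15 differences were positive, with a median of 0.10 (0.02 without WT animal 45) beside -0.01 over all genes. Trim28 and Trim33, the nearest relatives of Trim24, differed by -0.05 and -0.10 and were not called, as was true of the DNA methyltransferase Dnmt1 (0.17).

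The largest called rise was that of Obp2a, which encodes an odorant-binding lipocalin. It read 5.57, 9.29, 13.1 and 8.63 in WT and 465.6, 5285, 686 and 257 in Trim24-/- livers. Animal 6 was far above the other mutants, whose values still exceeded WT by more than an order of magnitude (5.06 ± 0.71, adjusted p = 0.0109). Among fits that left out 1 array the lowest difference was 4.18, and the call was lost once, without WT animal 45 (adjusted p = 0.0547). Bmyc, a short relative of Myc and the gene next to Obp2a, went from 14.5, 31.7, 16 and 31.8 to 102, 375, 146 and 134, with animal 6 the highest there as well (4.74-fold, 2.24 ± 0.34, adjusted p = 0.0157). Sertad4, a SERTA domain protein, was below 11 in all WT livers and read 29.4, 50.2, 34.0 and 33.4 in mutants (1.28 ± 0.15, adjusted p = 0.00308).

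**Figure D1:**
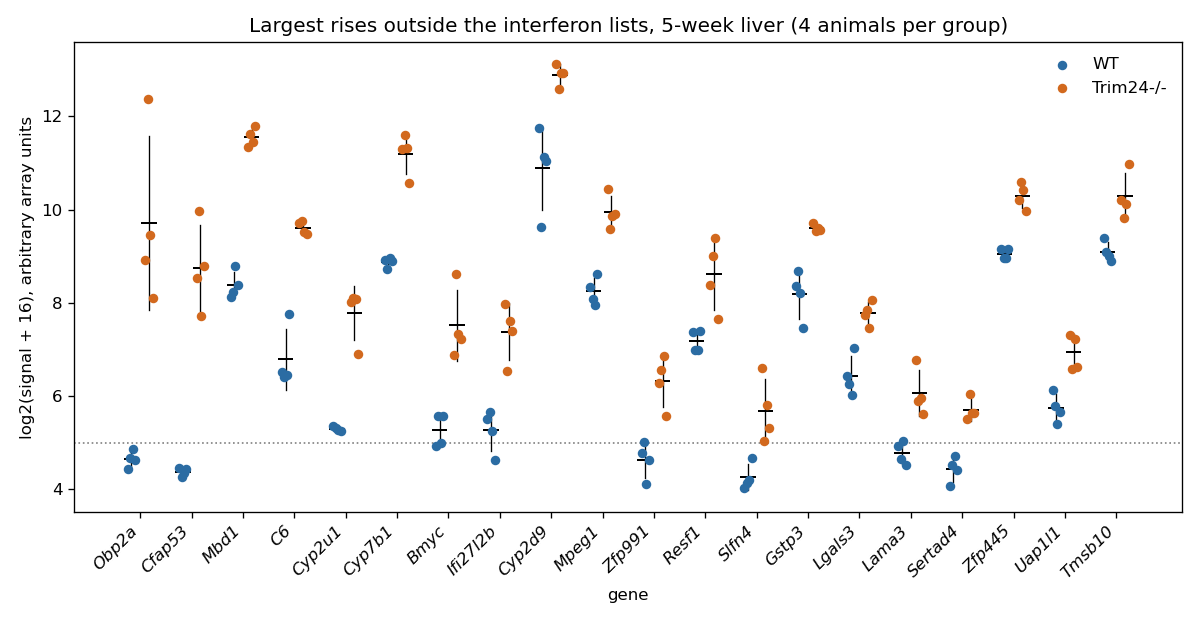
Signal per animal for the 20 largest rises outside the interferon lists, as log2(signal + 16) in arbitrary array units; each point is 1 animal (blue WT, orange Trim24-/-), horizontal bars are means of 4 animals, vertical lines 1 SD, and the dotted line marks a signal of 16. No WT point reaches the mutant points of its gene, and Obp2a and Cfap53 start from WT levels below 16.

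Steroid, lipid and xenobiotic enzymes changed in both directions. Cyp7b1, the oxysterol 7-alpha-hydroxylase of the acidic bile acid pathway, read 471, 408, 484 and 462 in WT and 2499, 3077, 2529 and 1499 in Trim24-/- livers. WT values were tight and every mutant lay far above them, giving 4.96-fold (2.31 ± 0.18, adjusted p = 1.23e-04). Cyp2u1, a hydroxylase of long-chain fatty acids, was at 25.3, 23.8, 22.8 and 22 in WT and 242, 261, 257 and 104 in mutants, where animal 37 alone was low (5.57-fold, 2.48 ± 0.22, adjusted p = 3.20e-04). Cyp2d9, which hydroxylates testosterone and is known as a male gene of mouse liver, read 3432, 772, 2208 and 2096 and 8939, 6159, 7793 and 7806. WT animal 44 was the lowest, and the highest WT liver stayed below every mutant (4.03-fold, 2.01 ± 0.33, adjusted p = 0.02). Cyp2d12, the gene beside it, was also called, from a mean of 6.49 ± 1.93 to 18.1 ± 2.92, a gene named here after its values were seen. Cyp4v3, an omega-hydroxylase of fatty acids, went from 2052, 2517, 2482 and 1979 to 5411, 4296, 5264 and 4022, with little spread in either group (2.09-fold, 1.06 ± 0.12, adjusted p = 0.00269). The pi class glutathione transferase Gstp1 read 5218, 5953, 6239.8 and 7204 and 12693, 9473, 10729 and 11874 (1.82-fold, adjusted p = 0.0142), and its neighbour Gstp3 312, 398, 282 and 160.1 and 818, 729.9, 761 and 743 (2.68-fold, adjusted p = 0.0146). Probes of such close paralogues, here the Cyp2d, Gstp and zinc finger genes, can take up each other's RNA, which was not tested.

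Falls in this class were led by Sult2a2, a sulfotransferase of hydroxysteroids. It read 2071, 8539, 5655 and 3475 in WT and 843, 339.5, 442 and 1219.6 in Trim24-/- livers. The WT values spread widely, yet the lowest of them exceeded the highest mutant (6.72-fold lower, -2.75 ± 0.43, adjusted p = 0.0191). Gstk1, a kappa class transferase of mitochondria and peroxisomes, went from 1983, 2560.3, 2292 and 1849 to 1527, 1355, 1499 and 1429 (1.48-fold lower, adjusted p = 0.0387). In the list of 21 glutathione transferases Gstp1 rose, Gstk1 fell and 18 differences were negative (median -0.13, -0.07 without WT animal 44 and -0.26 without WT animal 90). Of 37 CYP1 to CYP3 genes, Cyp2d9 and Cyp2u1 rose, none fell and the median was 0.02, and of 22 glucuronosyl- and sulfotransferase genes Sult2a2 alone was called (median -0.07). In the list of 12 CYP4 hydroxylases Cyp4v3 rose and Cyp4a14 fell. Cyp7b1 was the sole call among 21 bile acid synthesis genes, whose median was -0.02. Cyp7a1, the rate-limiting enzyme of the classic bile acid route, differed by -0.11 ± 0.55 and Cyp27a1 of the acidic route by -0.29 ± 0.19, neither of them called.

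Several of these enzymes differ between male and female mouse liver. Of 18 measured genes in the male-biased list 6 rose (Obp2a, C6, Cyp2u1, Cyp7b1, Cyp2d9 and Gstp1), none fell, and the median difference was 0.54. That list was compiled with earlier results of these arrays known, so its count is no independent evidence of a direction. Its mean log2 level was 7.82 ± 0.55 (SD, n = 4) for WT and 8.81 ± 0.41 for mutants. WT animal 44 was low, at 7.04, and the median fell to 0.20 without it, while mutant animal 37, at 8.19, lay within the WT range of 7.04 to 8.32. Mup3 and Hsd3b5, other members of the list, had differences of 0.86 and 1.18 and were not called. Differences were negative for 5 of the 18 genes, down to -0.66, and 1 of these lay below WT without overlap. In the female-biased list of 22 genes 3 fell (Sult2a2, Acot1 and Cyp4a14), none was called higher and the median was -0.18, or 0.04 without WT animal 44. In that list 8 differences were positive, the largest being that of Sult3a1 (3.35), which was not called. The 18 genes of the growth hormone and IGF axis held no call, and their median was -0.01.

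C6, a component of the membrane attack complex of complement, read 75.0, 69.2, 71.8 and 201 in WT and 819, 847, 719 and 694 in Trim24-/- livers. WT animal 90 stood above the other WT livers, but every mutant lay far above it. The rise was 7.11-fold (2.83 ± 0.25, adjusted p = 2.75e-04), and 3.15 without WT animal 90. Among 24 measured complement components no other member was called, 19 differences were positive and the median was 0.21. The 23 coagulation genes (median 0.04), 24 acute phase genes (0.09) and 11 major urinary protein and serpin genes (-0.07) held no call. Their brightest members differed little: the fetuin Ahsg by -0.02, the fibrinogen beta chain Fgb by 0.06 and the iron hormone hepcidin (Hamp) by 0.20. The heme binder Hpx differed by 0.04 and the thyroxine carrier Ttr by -0.07. Serpina1b, also among the brightest, ranged from -0.13 to -0.02 when 1 array was left out. Albumin (Alb), given as an example, differed by -0.10. Of the complement genes, C2 (0.66 ± 0.20, adjusted p = 0.203), Cfb (0.34 ± 0.12) and the C1 inhibitor Serping1 (0.37 ± 0.11, adjusted p = 0.172) of the early cascade had positive differences that were not called. The other membrane attack genes were near zero, with 0.11 for C8a, 0.20 for C8b and 0.21 for C9.

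Enzymes of fatty acid oxidation were among the falls. Cyp4a14, a fatty acid omega-hydroxylase, read 4856, 5633, 5309 and 5626 in WT and 3475, 2284, 3290.2 and 3195 in Trim24-/- livers, a fall of 1.76-fold (-0.82 ± 0.13, adjusted p = 0.0191). Ehhadh and Hsd17b4 are the bifunctional enzymes of peroxisomal beta-oxidation. Ehhadh went from 3101, 4096, 2774 and 2916 to 2222, 1609, 1865 and 1831 (1.70-fold lower, adjusted p = 0.0351). Hsd17b4 went from 2965, 3520.2, 3719 and 2933 to 2293, 2139, 2436 and 2389.8 (1.41-fold lower, adjusted p = 0.0499). In each case all 4 mutants lay below all 4 WT animals. Acot1, which splits acyl-CoA in the cytosol, read 571, 1021, 772 and 602 and 119.6, 291, 175 and 369, and although animal 37 came nearest to WT the groups were apart (3.14-fold lower, -1.65 ± 0.29, adjusted p = 0.0271). The calls of Cyp4a14, Acot1, Ehhadh and Hsd17b4 were lost under 6, 8, 18 and 20 of the 27 alternatives, for the last 2 also when arrays were centred or quantile normalised. When 1 array was left out their differences ranged from -0.89 to -0.69, -1.89 to -1.38, -0.85 to -0.64 and -0.55 to -0.43. Of the 31 genes measured in the list of fatty acid oxidation and its PPARa-driven enzymes 3 fell, none rose and 28 had negative differences, with a median of -0.22 that was -0.21 without WT animal 90 and Trim24-/- animal 6. Negative signs also prevailed in other lists, such as hepatocyte markers (11 of 11, median -0.10) and oxidative phosphorylation subunits (34 of 35, median -0.15). Positive signs prevailed in macrophage and Kupffer cell markers (21 of 24). The fatty acid oxidation list had 7 members below WT without overlap. Among those not called were the mitochondrial enzymes Eci1 (-0.40 ± 0.10, adjusted p = 0.115) and Acadm (-0.38 ± 0.10, adjusted p = 0.138). Acadm, the medium-chain dehydrogenase, read 4084, 5249, 4610.2 and 4869 in WT and 3861, 3591, 3238 and 3683 in mutants. Cpt1a, the gatekeeper of mitochondrial entry, differed by -0.08 and Ppara itself by -0.29, neither of them called. Of 12 acyl-CoA thioesterases only Acot1 was called and 10 differences were negative (median -0.29, -0.13 without WT animal 44). The mean log2 level of that list was 7.80 to 8.19 in WT and 7.65 to 7.69 in mutants, without overlap.

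**Figure D2:**
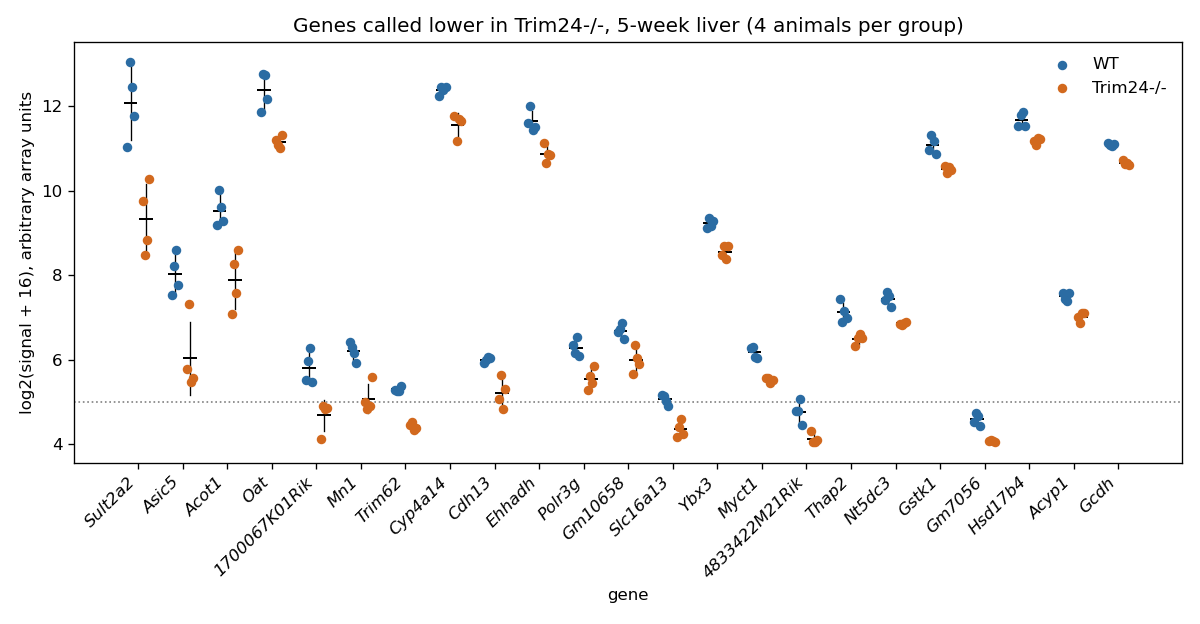
Signal per animal for the 23 genes called lower in Trim24-/- livers, as log2(signal + 16) in arbitrary array units; each point is 1 animal (blue WT, orange Trim24-/-), horizontal bars are means of 4 animals, vertical lines 1 SD, and the dotted line marks a signal of 16. The groups are apart for every gene, and Sult2a2 and Asic5 lead the 6 that fell by 1 or more on this scale.

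Other routes of energy use held few or no calls. All but 1 of 35 oxidative phosphorylation subunits had a negative difference, small in size (median -0.15, range -0.51 to 0.01), and none was called. The ATP synthase subunit Atp5b read 6553, 6970.0, 6554 and 5668 and 6436, 5364, 5775 and 6366, with overlapping groups, and Uqcrb of complex III differed by -0.06. Cholesterol synthesis and uptake (20 genes, 18 negative, none called) had a median of -0.26, which moved to 0.04 when mutant animal 6 was left out and to -0.60 when WT animal 90 was. The list's mean log2 level was 7.83 in WT animal 90 and 7.5 in Trim24-/- animal 6, against 9.06 to 9.65 in the other 6 livers. Sc5d, a late enzyme of that route, read 1114 and 1036 in those livers and 3299 to 4722 in the others. The lists of fatty acid and triglyceride synthesis (26 genes, median -0.10), lipid droplets (19, -0.16, -0.04 without Trim24-/- animal 6), apolipoproteins (24, -0.08), gluconeogenesis (20, -0.07), glycolysis and glycogen (21, -0.04) and bile acid transporters (21, -0.09) held no call. Their brightest members were close between the groups. They included the desaturase Scd1 (-0.06), the lipogenic regulator Thrsp (-0.37), the lipid droplet protein Plin2 (-0.00) and Hsd17b13 (0.05). Also among them were the apolipoproteins Apoa1 (-0.05) and Apoa2 (-0.08), and Fbp1 (-0.04) and Pck1 (0.08) of gluconeogenesis. Others were Gapdh (-0.13) of glycolysis and the bile acid carriers Slc10a1 (-0.19) and Slco1b2 (-0.22). Ldha, bright in the glycolysis list as well, ranged from -0.22 to -0.09 when 1 array was left out. The glucose carrier Slc2a2, given as an example, differed by -0.07.

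Oat, the ornithine aminotransferase of liver cells around the central vein, was the largest fall among 40 genes of amino acid breakdown and the urea cycle. It read 3689, 6969, 6849.9 and 4592 in WT and 2333, 2169.9, 2038 and 2555 in Trim24-/- livers. Mutants were uniform and the lowest WT liver lay well above them (2.34-fold lower, -1.23 ± 0.20, adjusted p = 0.0194). It was the only call of that list, in which 29 differences were negative (median -0.14, -0.07 without Trim24-/- animal 6), and of the 16 pericentral markers (12 negative). The pericentral median of -0.15 moved to -0.02 without WT animal 44 and to -0.32 without WT animal 90. Glul, the glutamine synthetase of the same cells, read 4837, 4995, 3675 and 3645 and 3121, 2277, 3865 and 2267, which was not called (-0.59 ± 0.18, adjusted p = 0.196). No periportal marker among 14 was called (median 0.07), and Cps1 and Arg1 of the urea cycle differed by -0.14 and -0.06. Gcdh, a mitochondrial enzyme of lysine and tryptophan breakdown that stood in none of the lists, fell from 2229, 2167, 2123 and 2177 to 1673, 1564, 1601 and 1542, a small change with little spread (1.36-fold lower, adjusted p = 0.0289).

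The remaining falls have varied roles. Asic5, an acid-sensing ion channel, read 169, 279.7, 369.9 and 203 in WT and 38.9, 143, 28.3 and 31.1 in mutants, where animal 6 stood near the WT range (3.99-fold lower, -2.0 ± 0.35, adjusted p = 0.0271). Mn1, a transcriptional co-regulator, went from 69.3, 62.6, 55.8 and 44.3 to 15.7, 12.5, 13.7 and 31.7 (2.18-fold lower, -1.13 ± 0.19, adjusted p = 0.0210). Trim62, a ubiquitin ligase of the tripartite motif family, was at 23.2 ± 1.51 in WT and at 5.46 ± 1.19 in mutants (adjusted p = 0.0194), although its 2 other probe sets were not called. Cdh13, a cadherin without a cytoplasmic domain, fell from 48.0 ± 2.99 to 21.9 ± 9.30, and Myct1, a gene of endothelial cells, from 56.2 ± 7.06 to 29.8 ± 1.81. Of 3 other Cdh13 probe sets none was called and 1 had the opposite sign. Neither gene stood in the endothelial list, of whose 21 markers none was called and 19 had negative differences (median -0.13, -0.04 without Trim24-/- animal 8, -0.23 without animal 37). Polr3g, a subunit of RNA polymerase III, fell from 62.4 ± 10.9 to 31.2 ± 8.19, the cold shock domain protein Ybx3 from 585 ± 42.5 to 363 ± 39.4 and Thap2, with a zinc-binding THAP domain, from 124 ± 23.3 to 73.6 ± 7.13, though 1 other Thap2 probe set had the opposite sign. Nt5dc3 and the acylphosphatase Acyp1 were 1.5-fold and 1.39-fold lower, with 1 of 2 other Acyp1 probe sets of opposite sign. Slc16a13, a carrier of the monocarboxylate family, dropped from 17.3 ± 2.79 to 4.55 ± 2.75. The other 4 falls were the predicted genes Gm10658, Gm7056, 1700067K01Rik and 4833422M21Rik, of which the last 3 had means below 16 in mutants.

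Immune genes outside the interferon lists were among the rises. Mpeg1, a pore-forming protein of macrophages, read 308, 256, 233 and 377 in WT and 1364, 749, 909.6 and 943 in Trim24-/- livers, every mutant lying well above the highest WT value (3.23-fold, 1.69 ± 0.30, adjusted p = 0.0275). It was the only call among 24 macrophage and Kupffer cell markers, of which 21 had positive differences (median 0.39, 0.17 without Trim24-/- animal 37 and 0.60 without WT animal 90). The summed signal of that list was 6651 to 13710.5 in WT and 9074 to 18236 in mutants, so the groups overlapped, and 1 of the 24 had a mean below 16. Adgre1 and Clec4f, which define Kupffer cells, read 182, 160.2, 121 and 260.4 against 124, 276, 136 and 371 and 506, 604, 488 and 1218 against 449, 1149.6, 555 and 1223, with overlap in both cases. In the same list Marco, Aif1 and Cd5l had the next largest differences (1.13 ± 0.27, 1.05 ± 0.29 and 1.02 ± 0.28), with adjusted p of 0.114, 0.156 and 0.160, and the scavenger receptor Cd163 was lower by -0.74 (adjusted p = 0.428). The part of these markers in the rises of immune genes was not tested. Lgals3, the lectin galectin 3, went from 70.1, 60.3, 49.3 and 115 to 197, 213, 160.4 and 250.1 (2.53-fold, adjusted p = 0.0402). Tmsb10, which binds actin monomers, rose 2.28-fold, from 655, 528, 499 and 457 to 1163, 885, 1099 and 2012, with animal 37 the highest (adjusted p = 0.0313), though 1 of its 4 other probe sets had the opposite sign. Gas6, a ligand of receptors for the uptake of dead cells, read 239, 179, 149 and 182 in WT and 413, 339.7, 365 and 383 in mutants. It stayed called in every fit that left out 1 array (1.94-fold, 0.96 ± 0.13, adjusted p = 0.0109). P2rx4, a cation channel opened by ATP, rose 1.93-fold, from 239 ± 51.6 to 476 ± 85.4, with 1 of 3 other probe sets of opposite sign.

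Some dim immune genes were also called higher. Ccl2, the chemokine that draws monocytes, read 1.73, 1.38, 2.27 and 8.29 in WT and 40.4, 14.8, 16.1 and 18.2 in mutants and was the only call among 21 chemokines (13 positive, median 0.11, 0.04 without Trim24-/- animal 37). Slfn4, of the schlafen family, went from 0.302, 1.60, 2.46 and 9.35 to 80.9, 16.7, 39.8 and 23.8, and Ifi27l2b from 29.7, 34.7, 22.1 and 8.87 to 237, 77.1, 179.8 and 152 (4.33-fold, adjusted p = 0.0109). Slfn4 lies beside Slfn2, and Ifi27l2b beside Ifi27 and Ifi27l2a, all of them called members of the interferon lists, which do not hold every gene known to respond to interferon. Calhm6, a membrane channel protein, rose from 15.6 ± 7.59 to 43.7 ± 6.05, and Ms4a4b, a membrane protein of T cells, from 11.7 ± 5.89 to 37.7 ± 11.3, against the sign of its 1 other probe set. None of 20 T and NK cell markers was called (15 positive, median 0.19), nor any of 11 B and plasma cell markers (9 positive, median 0.21), 11 neutrophil markers (0.09) or 8 MHC class II genes (0.35, 0.11 without animal 37 and 0.62 without WT animal 90). Ighm, the heavy chain of IgM, read 49.7, 8.69, 2.75 and 62.4 and 133, 103, 71.4 and 119.8, without overlap and not called (adjusted p = 0.142). The class II chain H2-Aa read 544, 723, 475 and 1647 and 539, 1402, 543 and 1441, and its invariant chain Cd74 479, 551, 402 and 1607 and 540.3, 1476, 448 and 1629.8. WT animal 90 and Trim24-/- animals 6 and 37 were high for both, so genotype did not separate them. The brightest T and NK cell markers were Zap70 (-0.32) and Ccl5 (0.75), and the neutrophil alarmins S100a8 and S100a9 differed by 0.47 and 0.36.

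Structural and other rises completed the set. Lama3, a laminin chain, was below 17 in all WT livers and read 92.8, 43.7, 46.5 and 33.0 in mutants (1.28 ± 0.21, adjusted p = 0.0210). Uap1l1, related to an enzyme of nucleotide sugar synthesis, rose 2.29-fold, from 54.2, 38.9, 26.3 and 34.4 to 144, 79.4, 133 and 83.2. Shisa5, a protein of the endoplasmic reticulum, rose 2.17-fold, from 819.8, 728, 621 and 730.2 to 2271, 1153, 1809 and 1327. Ermp1, a peptidase of the same compartment, rose 1.98-fold, from 370.2, 329, 244 and 301 to 682, 679, 626 and 525. AI413582, a gene with no known role, rose from 1.60 ± 0.895 to 19.9 ± 12.3. None of 25 stellate cell and matrix markers was called, 22 had positive differences and the median was 0.39, or 0.22 without Trim24-/- animal 37. Col1a1 and Col3a1 were highest in Trim24-/- animal 37, at 219.7 and 2651, against 18.4 to 73.2 and 231 to 809 in the other 7 livers. Dcn and Ecm1 were the brightest of that list. Dcn differed by 0.01, and Ecm1 ranged from -0.06 to 0.09 when 1 array was left out. Sparc, given as an example, differed by 0.12. No cholangiocyte marker was called among 12 (10 positive, median 0.26, 0.16 without animal 37), and the keratins Krt18 and Krt8 differed by 0.58 ± 0.17 and 0.41 ± 0.16. The other 23 called rises, not named by rule, ran from 0.45 for Phlda2 to 0.93 for Abcc12 on the log2 scale. They include genes of the cell surface, matrix and cytoskeleton, named here after their values were seen. Agrn, a heparan sulfate proteoglycan, read 106, 91.4, 99.4 and 118 in WT and 236, 153, 184 and 201 in mutants, and Tgfbi, a matrix protein induced by TGF-beta, 438, 333, 282 and 276 and 603, 467, 595 and 604. Anxa2, which binds membranes, read 150.2, 141, 126 and 149.9 and 302, 211, 196 and 355, and the non-muscle myosin Myh10 70.3, 38.5, 58.9 and 55.6 and 101, 105, 99.8 and 128. In each of these 4 the lowest mutant was above the highest WT liver, with adjusted p of 0.0387, 0.0411, 0.0452 and 0.0275. Both other Anxa2 probe sets and the 1 other probe set of Agrn and of Myh10 had the opposite sign without being called, and the Anxa2 call was lost under 21 of the 27 alternatives. Marveld2, a protein of tight junctions between 3 cells, went from 65.9, 82, 50.8 and 67.7 to 135, 126, 151 and 110.0 (adjusted p = 0.0202). Samhd1, which breaks down nucleotides, and Dck, which makes them by salvage, both rose, from 103 ± 15.2 to 180.1 ± 23.7 and from 71.1 ± 4.87 to 124 ± 14.1, with 1 of 4 other Samhd1 probe sets of opposite sign. Gabra3, a subunit of the GABA receptor, and Frzb, a secreted Wnt binder, were dim in WT (12.1 ± 2.95 and 11.1 ± 4.54) and higher in mutants (34.2 ± 12 and 32.8 ± 6.98).

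**Figure D3:**
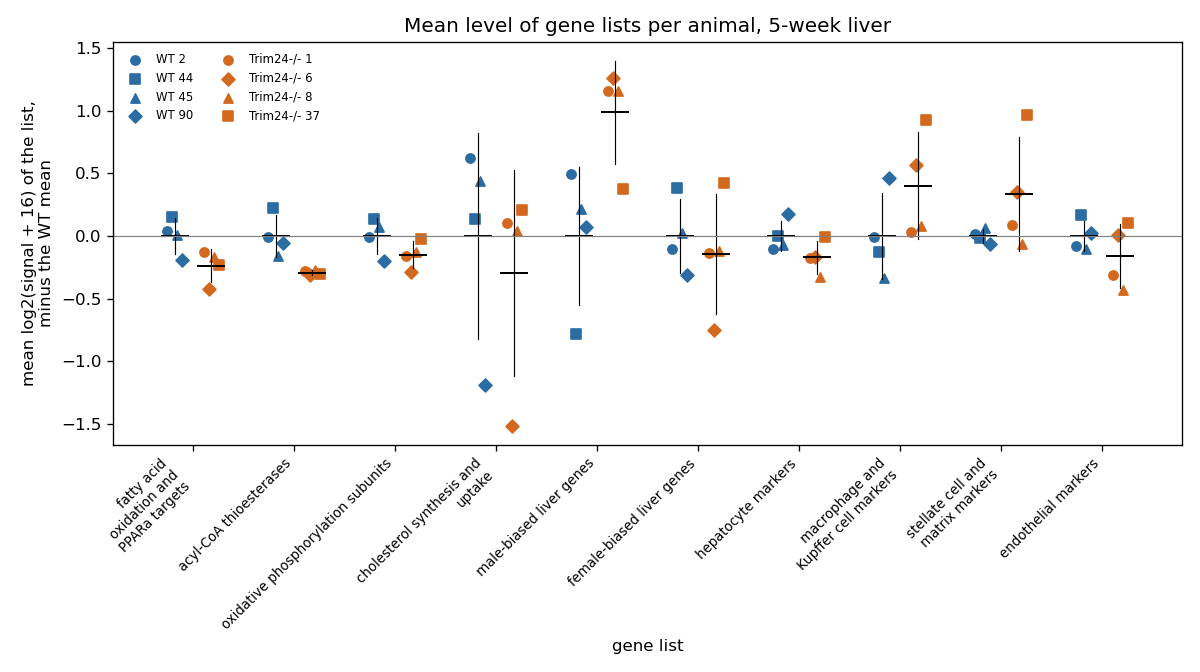
Mean log2(signal + 16) of 10 gene lists in each of the 8 livers, after subtracting the list's mean over the 4 WT animals; symbols mark the animal (blue WT, orange Trim24-/-), horizontal bars are group means and vertical lines 1 SD. The 4 mutants lie below every WT animal in the acyl-CoA thioesterases alone, while WT animal 90 and Trim24-/- animal 6 drop together in cholesterol synthesis.

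Lists of stress, growth and regulation held no call. They were the targets of NRF2 (20 measured, median 0.02), of p53 (23, 0.21, and 0.08 without WT animal 90 and Trim24-/- animal 6), the unfolded protein response (23, -0.06) and heat shock proteins (13, 12 of them negative, -0.24, and -0.13 without WT animal 45). The cell cycle list (33, 0.02), liver tumour and fetal genes (22, 0.02), the circadian clock (23, -0.11), iron and heme genes (23, 0.02), proteasome subunits (27, -0.02) and nuclear receptors with their co-regulators (27, 0.05) were alike in this. Retinoid storage and oxidation (22, 18 of them negative, median -0.12, -0.03 without Trim24-/- animal 6) and retinoic acid receptors and targets (24, 12 positive and 12 negative, 0.02) were also without a call. Rbp4, the plasma carrier of retinol, read 10865, 9641, 9988 and 9681 and 10161, 7525, 9154 and 9984, the receptor Rxra 1022, 966, 1070.0 and 792 and 884, 702, 929 and 1014, and Rarres2, the adipokine chemerin, 4609, 4657, 4328 and 2935 and 4477, 2921, 4466 and 4229. In all 3 the groups overlapped. The erythroid list (8, -0.11), flavin monooxygenases and carboxylesterases (25, -0.15) and markers of adipocytes, muscle and pancreas (14, -0.20) complete the lists without a call. Their brightest members, as differences, were Fth1 (-0.01) and Gstm1 (-0.13) of the NRF2 targets, Ei24 (0.04) and Pltp (-0.27) of the p53 targets, the chaperones Hspa5 (-0.14), Hspa8 (-0.19) and Hspd1 (-0.24), Herpud1 (0.04) of protein quality control, and Pcna (-0.08) and Ccnd1 (-0.37) of the cell cycle. Others were the clock output genes Dbp (0.24) and Nr1d2 (-0.09), the receptor Hnf4a (-0.15), Psmb7 (-0.06) of the proteasome and Igfbp4 (-0.08). Ces1c (-0.08), Adh1 (-0.10), Tbx3 (0.09), the transferrin receptor Tfrc (-0.58) and Alas2 (0.08) were also among them. None of these had an adjusted p below that of Hspd1 (0.338). Psmb4 of the proteasome and Igfbp2 of the IGF axis were likewise among the 2 brightest of their lists. They ranged from 0.02 to 0.11 and from -0.37 to -0.10 when 1 array was left out. As examples from these lists, Psmd11 differed by -0.05 and Igf1 by 0.00. The pancreatic elastase Cela1 had the lowest adjusted p in the lists without a call among their 2 brightest members, at 348, 223, 306 and 161 in WT and 606, 368, 760.2 and 608 in mutants (1.14 ± 0.25, adjusted p = 0.0756), while Cela2a of the same tissue differed by 0.09.

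**Figure D4:**
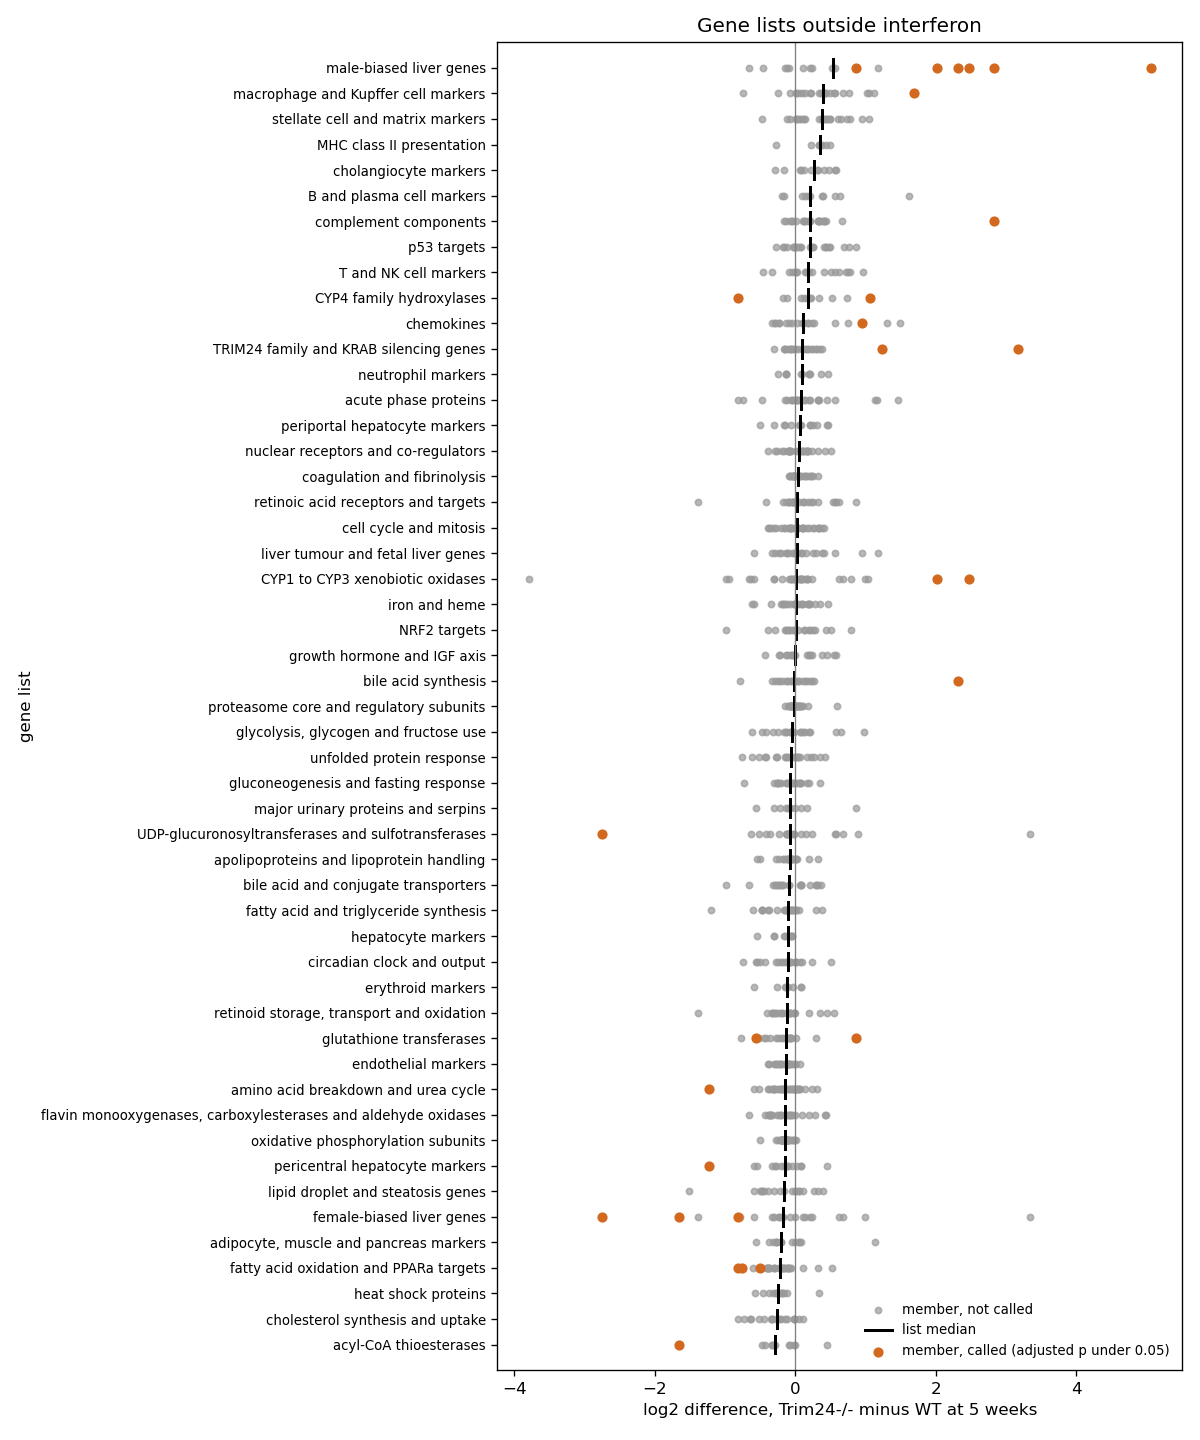
Differences between Trim24-/- and WT livers at 5 weeks, on the log2(signal + 16) scale, for the measured members of 51 gene lists outside the interferon lists; grey points are members that were not called, orange points called members, and black bars list medians. Medians lie between -0.29 and 0.54. Called members are most numerous in the male-biased list (6 of 18 measured), which was compiled with earlier results of these arrays known.

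Called genes were in part neighbours. Within 3 places of each other in gene order lay 7 pairs of called genes outside the interferon lists: Mbd1 with Cfap53, Obp2a with Bmyc, Gstp1 with Gstp3, Cyp2d9 with Cyp2d12, Zfp991 with Zfp979, Zfp445 with 1110059G10Rik, and Dck with Gm7056. In 6 of the pairs both genes rose, while Dck rose and Gm7056 fell. How many such pairs a like number of other genes would hold was not tested. Of 40 genes around Trim24, 20 on each side, 2 were called (5%, beside 0.599% of all genes), Zc3hav1l and Parp12. Of these, Parp12 is a member of the interferon lists. The median difference of the 40 genes was 0.00.

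The same genotypes at 14 weeks were different animals, with Eif2s3y high (245 to 344) and Xist low (13.4 to 44.5), the pattern of male livers. Age and the pattern of sex-linked signal therefore cannot be told apart. Of the 77 genes, 67 had the same sign at 14 weeks (87.0%, against 56.8% of all genes), 35 of them with an unadjusted p under 0.05 beside 8.23% of all genes at that age in either direction, and 15 were called at both ages, where 44 genes of the array (0.242%) were called at 14 weeks. These 15 are Mbd1, Cfap53, Obp2a, Bmyc, Cyp2u1, Cyp4v3, Gstp3, Resf1, Zfp991, Zfp979, Sertad4, Gabra3 and Phlda2, higher in mutants at both ages, and Oat and Mn1, lower at both. Cfap53 went from 5.06 ± 1.99 (SD, n = 5) in WT to 1614 ± 556 in Trim24-/- livers at 14 weeks (6.19 ± 0.24, adjusted p = 1.14e-07), and Obp2a from 94.0 ± 80.4 to 3790.4 ± 529.8 (5.40 ± 0.40, adjusted p = 6.02e-05). Mbd1 rose by 2.42 ± 0.24, Resf1 by 2.43 ± 0.14, Zfp991 by 2.14 ± 0.24 and Gstp3 by 1.44 ± 0.12. Oat stood at 3354 ± 180.0 and 1659 ± 201 in the older mice (-1.02 ± 0.11, adjusted p = 0.00152), and Mn1 at 98.5 ± 22.5 and 26.1 ± 10.9 (-1.46 ± 0.19). The 4 fatty acid genes were not called at 14 weeks, with differences of -0.19 ± 0.57 for Cyp4a14, -0.20 ± 0.56 for Acot1, -0.04 ± 0.23 for Ehhadh and -0.18 ± 0.10 for Hsd17b4, and for none of them was the difference between ages called (adjusted p = 0.934, 0.774, 0.728 and 0.769).

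The difference between ages was called for 6 genes of the array (0.0330%), 2 of them among the 77, C6 and Sult2a2. Its unadjusted limma p was under 0.05 for 52 of the 77 (67.5%), against 6.39% of all genes. Median differences at 5 and 14 weeks were 0.95 and 0.40 for the 54 rises and -0.71 and -0.18 for the 23 falls. The 77 were selected at 5 weeks, which makes larger differences at that age likely. C6 stood at 1385 ± 295 in WT and 1706 ± 303 in Trim24-/- livers at 14 weeks, and its effect was larger at 5 weeks by 2.52 ± 0.31 (adjusted p = 4.00e-04). Sult2a2 was near zero at 14 weeks, at 6.39 ± 4.88 and 10.9 ± 6.22, too low in WT for a fall to be seen. Its effects differed by -3.01 ± 0.49 (adjusted p = 0.0127). Cyp7b1 and Cyp2d9 were also high in both genotypes at 14 weeks (3569 ± 1583 and 4591 ± 665, and 5079.6 ± 1315 and 5635 ± 669), but their differences between ages were not called (adjusted p = 0.276 and 0.154).

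**Figure D5:**
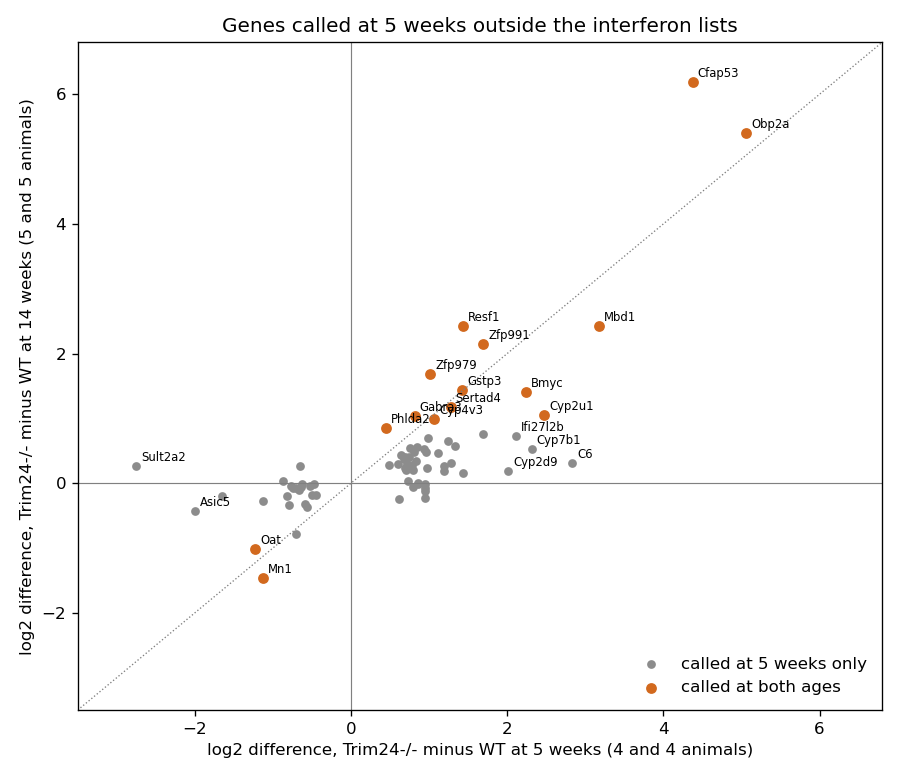
Difference between Trim24-/- and WT livers at 5 weeks (horizontal, 4 and 4 animals) and at 14 weeks (vertical, 5 and 5 animals), both on the log2(signal + 16) scale, for the 77 genes called at 5 weeks outside the interferon lists; orange points were called at both ages and the dotted line marks equal differences. Obp2a and Cfap53 are far up the diagonal, whereas C6, Cyp7b1, Cyp2d9 and Sult2a2 lie between 0.19 and 0.53 on the vertical axis.

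Livers of Trim24-/- Rara+/- mice were compared with the same 4 WT livers, so their values are given beside those above without a count of shared calls. Mbd1 differed from WT by 3.83 ± 0.22 (adjusted p = 6.91e-06) in these livers, where the value in Trim24-/- livers was 3.17. Cfap53 differed by 4.91 ± 0.43 beside 4.37, C6 by 2.77 ± 0.25 beside 2.83, Cyp7b1 by 2.33 ± 0.18 beside 2.31, Zfp445 by 1.39 ± 0.13 beside 1.24 and Cyp4v3 by 1.16 ± 0.12 beside 1.06. The fatty acid genes were near WT in Trim24-/- Rara+/- livers, at 0.15 ± 0.13 for Cyp4a14, -0.08 ± 0.14 for Ehhadh, 0.01 ± 0.10 for Hsd17b4 and 0.23 ± 0.29 for Acot1, with adjusted p of 0.870, 0.934, 0.991 and 0.909. Mpeg1 read 392 ± 238, Lgals3 90.6 ± 43.7 and Gas6 186 ± 19.5 there (SD, n = 4), against 293 ± 63.8, 73.7 ± 28.8 and 188 ± 37.7 in WT and 991 ± 263, 205 ± 37.2 and 375 ± 31.0 in Trim24-/- livers. Whether any of these genes differs between Trim24-/- and Trim24-/- Rara+/- livers was not tested here.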

How the data were processed

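The authors deposited 1 linear intensity per probe set and array (45101 probe sets, 22 arrays). Per the labels' protocols, 100 ng of RNA from frozen liver went through 2 rounds of amplification before hybridisation. Neither the scaling software nor a genome build is named in the sources used here. In the values, the mean left after trimming 2% at each end was equal on all arrays. Intensity gives no read depth, so the number of animals limits the precision.

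Computed here were log2(signal + 16) values and limma fits (version 3.58.1, R 4.3.3, lmFit and eBayes). Of the probe sets, 34958 name 1 gene symbol. For the 9012 genes with several, the brightest probe set on average across the 22 arrays was kept, giving 18194 genes. The 5-week fit held 12 arrays (3 genotypes), which share 1 estimate of the spread. Ages were compared in a fit of all arrays. P-values were adjusted by Benjamini-Hochberg over all genes, and an adjusted p under 0.05 is a call. A group with a mean under 16 gets no fold. The scripts were tested on simulated data. Labels call the samples separate animals, so p-values rest on the spread between animals, at 5 weeks that of all 12 arrays in the fit.

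Named by rule were Trim24 and Rara, the 30 largest rises and 25 largest falls among calls outside the 3 interferon lists whose groups do not overlap, up to 6 called members per list, and the 2 brightest members of a list without a call. The comparison, its gene lists and tests were chosen with earlier results of these data known. Alternatives changed the pseudocount (1 or 64), the normalisation, the probe set rule, the filter, the arrays fitted, array weights and the variance prior, and left out each animal in turn. Alternatives for animals 90, 6, 1 and 8 were added after seeing the data. No column belongs to another series. Sequences are RefSeq's.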

Additional observations from a re-analysis of the deposited data

Results flagged for a closer look

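Single animals stood apart from the other 3 of their group in 15 of 246 groups tested by the gap to the nearest value, where chance gives about 1 in 20. In WT livers, animal 90 read 201 for C6 (others 69.2 to 75.0), 8.29 for Ccl2 (1.38 to 2.27), 2935 for Rarres2 (4328 to 4657) and 8669 for Uqcrb (9868 to 10092). WT animal 2 read 3632 for Pck1 (5751 to 6073), and WT animal 45 read 3128 for Hnf4a (2610.2 to 2659). In Trim24-/- livers, animal 6 read 349 for P2rx4 (506 to 535), 143 for Asic5 (28.3 to 38.9), 1036 for Sc5d (3299 to 3764) and 2921 for Rarres2 (4229 to 4477). Trim24-/- animal 37 read 1.23 for Rara (15.7 to 19), 104 for Cyp2u1 (242 to 261) and 4611 for Ldha (3541 to 3576). Trim24-/- animal 1 read 1.42 for 1700067K01Rik (12.5 to 13.7) and 3.65 for 4833422M21Rik (0.584 to 0.971). WT animal 90 and Trim24-/- animal 6 account for 8 of the 15.

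The effect of Trim24 loss differed between the 5-week and 14-week arrays for C6 (by 2.52 on the log2 scale, adjusted p = 4.00e-04 in limma) and for Sult2a2 (by -3.01, adjusted p = 0.0127). Age and the pattern of sex-linked signal cannot be told apart in this comparison. Sult2a2 read 6.39 ± 4.88 in WT livers at 14 weeks, too low for a fall to be seen. Among 10143 probe sets that name no single gene and enter no comparison above, 16 were called when every probe set was tested, 9 higher and 7 lower (0.158%, against 105 of all 45101, 0.233%).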

How the results depend on the processing

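Over 27 alternatives, 24 of them planned, none of the 77 genes called outside the interferon lists changed sign. Because the groups of these genes do not overlap, leaving out an animal or changing the pseudocount could not have reversed a sign. Of the 69 genes named by rule that were not called, Rara, Sc5d, Scd1, Plin2 and Pck1 among them, 31 had an estimate of the opposite sign under at least 1 alternative. Of the 77 calls outside the interferon lists, 7 were kept under every alternative, 16 were lost under at most 5 and 35 under more than 13. The count of all called genes (109) was 21 with Trim24-/- animals 1 and 8 averaged, 19 with only the 8 arrays fitted and 34 with a pseudocount of 1, and 12 to 137 when 1 animal was left out. Outside the interferon lists (77) the counts were 17 with the average, 11 with 8 arrays, 25 with a pseudocount of 1, 120 with a term for WT animal 90 and Trim24-/- animal 6, and 9 to 111 without 1 animal. Rises (54) numbered 16, 9, 17 and 85 in the same settings, 83 with all 22 arrays fitted and 9 to 76 without 1 animal. Falls (23) numbered 1, 2, 8 and 35, 10 with each array centred on its median, and 0 to 35 without 1 animal. With only 8 arrays fitted, 10 of the 77 were called. All 77 kept an unadjusted p under 0.05 there, which their selection from the same arrays made likely. Leaving out a Trim24-/- Rara+/- animal changes only the shared spread, and the count outside the interferon lists was 41 without animal 54, 44 without 66 and 49 without 82. Genes whose difference between ages was called (6) numbered 6 with quantile normalisation and with a pseudocount of 64, and 5 with a pseudocount of 1, the alternatives run for it. No paired analysis was possible because the animals' numbers are not shared between the groups. Precision is limited by 4 animals a group, and for genes near a signal of 16 by the pseudocount.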

Other observations

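The following genes were not called and are given as values, chosen after their values were seen. Cyp2c37, a P450 of the Cyp2c family, read 5525, 6237, 4981 and 5044 in WT and 141, 137, 125 and 6923 in Trim24-/- livers, so that 3 mutants were low and animal 37 was at the WT level (-3.80 ± 1.19, adjusted p = 0.228). Sult3a1, a sulfotransferase, read 280.0, 20.8, 114 and 6827 in WT and 2746, 3302, 2605 and 4307 in mutants, where WT animal 90 alone exceeded the mutants (3.35 ± 1.12, adjusted p = 0.269). Both lie in multigene families whose probe sets may take up RNA of relatives, which was not tested.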
